A study of Rattus norvegicus with 9 samples.

Results

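Liver of rats given diethylnitrosamine was compared with liver of untreated rats across all genes of the deposited count table. The comparison used 6 of the 9 rats sequenced, 3 DEN model rats (M13, M17 and M24) and 3 normal control rats (N1, N3 and N12), with 1 library per rat, chosen by the first letter of the rat's name. Of 32883 genes in the table, 14255 had enough counts to be tested. All rats were male Sprague-Dawley animals. Normal control rats received a normal diet, and DEN model rats were injected into the abdomen every week with 0.01% DEN over 16 weeks. The study collected rats at several weeks of treatment, and at which week each of the sequenced rats was taken is not given in the sources used here, so duration of treatment and animal cannot be told apart within the DEN model group. The treatment tag of the M rats names PZH, the drug given to the remaining 3 rats. It was set aside because the study describes a DEN model group without drug among the livers sequenced, and the DEN model label therefore rests on the M in the names of the rats.

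DEN is a liver carcinogen that the cytochrome P450 enzymes of hepatocytes, above all Cyp2e1, convert into a form that alkylates DNA. Repeated dosing is used in rodents to produce hepatocyte death and regrowth, scarring and then liver tumours. Hepatocytes make the plasma proteins, run the urea cycle and clear drugs. Stellate cells deposit scar matrix, cholangiocytes line the bile ducts, and sinusoidal endothelial cells and Kupffer cells line and patrol the blood spaces.

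Total counts lay between 15259441 and 16641954 per rat, and 3 counts, the floor used here, were worth 0.132 to 0.266 CPM (read counts scaled to library size with edgeR's TMM factors), for counting error alone. The 3 normal rats and the 3 DEN rats separated on the first principal component, which held 83.1% of the variance of log2 values. Rat M17 lay nearest to the normal rats, at -48.2 on this component, where M13 lay at -84.1, M24 at -88.6 and the normal rats between 71.5 and 75.9. Rat N3 stood apart on the second component (6.7% of the variance), at -41.8 against 19 and 21.2 for the other normal rats. Genes encoded in the mitochondrial genome took 10.5% of its counts, against 4.92% and 5.92% in the other normal rats and 9.92% to 10.6% in DEN rats. Scaling by library totals in place of TMM raised the log2 fold change of the median gene by 0.86, so every direction given here is relative to the TMM scaling. The liver markers below were present in all 6 rats, with albumin among the most abundant genes of both groups. Bulk liver RNA cannot separate fewer cells of a type from less RNA per cell.

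The thresholds used by the study were a change of more than 2 on the log2 scale, up or down, together with P under 0.001 before adjustment. Adjusted p is the Benjamini-Hochberg value over the 14255 genes in the quasi-likelihood test of edgeR. Past the thresholds were 12.3% of all tested genes, 8.81% higher and 3.49% lower in DEN liver. An adjusted p under 0.05 was met by 45.8%, 25.3% higher and 20.5% lower, and in 58.8% the 3 DEN rats did not overlap the 3 normal rats (31.8% higher and 26.9% lower). Of 159 genes above 1000 CPM in normal liver, 58 were lower past the thresholds and 0 were higher, and their median log2 fold change was -1.96. No such count is read from genes that were rare in normal liver, since a gene below the filter on low counts in normal rats was tested only if it was high in DEN rats. With at least 10 counts in every rat, 550 genes were higher and 388 lower past the thresholds. The 100 genes that held the largest shares of counts in normal liver took 47.5%, 50.8% and 46.5% of all counts in N1, N3 and N12, and 28.2%, 37.6% and 24.6% in M13, M17 and M24.

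**Figure D1:**
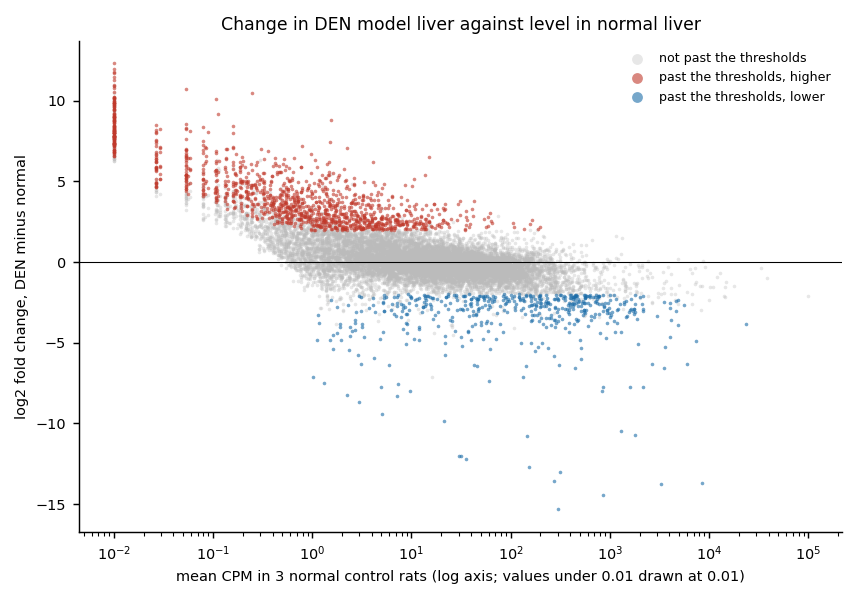
Each point is 1 of the 14255 tested genes, with its mean CPM in the 3 normal control rats on a log axis and its log2 fold change in DEN model liver on the vertical axis. Genes past the thresholds are coloured (red higher, blue lower), genes rare in normal liver entered the test in part through high DEN counts, and the fitted changes at the far left, where normal rats had no counts, depend on edgeR's prior count.

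The genes that hepatocytes use for their own work fell together. Of 25 plasma protein genes, 15 were lower with an adjusted p under 0.05 and 0 were higher, 7 of them past the thresholds, and the list had a median log2 fold change (called the list median) of -1.90 where all tested genes had 0.03. Ttr, which carries thyroid hormone, was at 4128, 5183 and 5410 CPM in N1, N3 and N12 and at 235.1, 559.2 and 198.6 CPM in M13, M17 and M24, which is -3.89 on the log2 scale (standard error 0.50, adjusted p = 0.000666). Rbp4, the plasma carrier of retinol, was at 4133, 3528 and 4341 CPM in normal rats and at 519.6, 1072 and 464 CPM in DEN rats (log2 fold change -2.55, standard error 0.42, adjusted p = 0.00189). In both genes the groups were far apart, and M17 was the DEN rat nearest to normal. Albumin (Alb) was at 103800, 98080 and 94770 CPM in normal rats and at 22070, 32570 and 14930 CPM in DEN rats (log2 fold change -2.09, standard error 0.69, adjusted p = 0.0367). Its adjusted p rose above 0.05, so that the call was lost, when any rat other than M17 was left out. Among the 10 genes that did not pass, the log2 fold change was -0.98 for Tf, the gene of transferrin (adjusted p = 0.196), -0.95 for Apob (adjusted p = 0.134) and -0.30 for Apoa1 (adjusted p = 0.551). In the deposited FPKM, which divides by gene length and library total and not by the TMM factors, and where levels of different genes can be compared, the mean for Apoa1 was 1651 in normal and 2318 in DEN liver and that for Apoa2 was 1559 and 102.7. These apolipoproteins of the same particle, at like levels in normal liver, were thus far apart in DEN liver. Without M13, 11 genes of this list had an adjusted p under 0.05, and without M17, 24 did.

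Of 16 transcription factors that set hepatocyte identity, 14 were lower at an adjusted p under 0.05 and 0 were higher, with a list median of -1.65. Hnf4a, the nuclear receptor that many hepatocyte genes depend on, was at 983.9, 820.4 and 892.7 CPM in normal rats and at 222.2, 386.8 and 257.8 CPM in DEN rats (log2 fold change -1.64, standard error 0.29, adjusted p = 0.00242). Cebpa, a factor of differentiated, resting hepatocytes, was at 405.1, 354.5 and 370.1 CPM against 107.9, 144.7 and 97.18 CPM (log2 fold change -1.69, standard error 0.23, adjusted p = 0.000782). Every DEN rat lay under every normal rat in both. Nr0b2, which mediates feedback of bile acids on their own synthesis, had a log2 fold change of -2.91 (adjusted p = 0.00108), and Nr1h4, the bile acid receptor itself, of -1.88 (adjusted p = 0.000543). Foxa2, a pioneer factor shared by hepatocytes and duct cells, stayed at 14.7 to 22.99 CPM in normal rats and 15.96 to 21.94 CPM in DEN rats, and these ranges overlapped.

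Among the cytochromes P450 and their reductase Por, 20 of 24 tested genes were lower at an adjusted p under 0.05 and 1 was higher, with 17 lower past the thresholds, the list median being -2.94. Cyp2e1, which activates DEN, was at 2824, 4344 and 5212 CPM in normal rats and at 156.9, 665.2 and 194.2 CPM in DEN rats (log2 fold change -3.61, standard error 0.63, adjusted p = 0.00243). Cyp1a2, which clears aromatic amines, was at 423.4, 333.1 and 400.5 CPM against 22.38, 54.66 and 8.747 CPM (log2 fold change -3.75, standard error 0.59, adjusted p = 0.00157). In both, rat M17 kept the highest level of the DEN rats. The gene that rose was Cyp2c12, a P450 of female rat liver, at 74.54, 33.31 and 114.9 CPM in normal rats and 408, 1010 and 212.5 CPM in DEN rats (log2 fold change 2.87, standard error 0.63, adjusted p = 0.00669). Its male-type relatives went the other way, with Cyp2c13 at 1364, 2470 and 1971 CPM against 20.69, 93.19 and 60.48 CPM (log2 fold change -5.06, standard error 0.60, adjusted p = 0.000445). Genes of the Cyp2c, Cyp2d, Cyp3a and Cyp4a families are near copies of each other, so reads may be shared among them and the split within a family is uncertain.

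These sex-typed P450 genes are known targets of growth hormone, whose pulses differ between male and female rats and act through Stat5b. In the list of 19 growth hormone and IGF genes, 8 were lower and 7 higher at an adjusted p under 0.05. Ghr, the growth hormone receptor, was at 802.3, 1101 and 760.9 CPM in normal rats and at 123.6, 220.1 and 120.5 CPM in DEN rats (log2 fold change -2.52, standard error 0.33, adjusted p = 0.000704). Igf1, the circulating growth factor that liver makes in response, was at 431.3, 488.7 and 471.6 CPM against 101.6, 172.1 and 50.28 CPM (log2 fold change -2.10, adjusted p = 0.00378). Igfals, which holds IGF in its circulating complex, had a log2 fold change of -4.06 (adjusted p = 0.00155), and Bcl6, a repressor that is higher in male liver, of -2.95 (adjusted p = 0.000406). The receptor, the hormone and its carrier thus fell in every DEN rat. Stat5b was at 45.42, 39.86 and 44.9 CPM against 23.59, 29.63 and 25.98 CPM, a log2 fold change of -0.72 (adjusted p = 0.00746) that turned to 0.13 with library totals. Among the genes that rose, Igfbp5, an IGF binding protein of stromal cells, went from 2.068, 1.949 and 5.864 CPM to 46.32, 84.5 and 32.7 CPM (log2 fold change 4.04, adjusted p = 0.000624). Igf1r, the IGF receptor that hepatocytes nearly lack, went from 0.4773, 1.063 and 0.5623 CPM to 5.841, 3.089 and 4.703 CPM (log2 fold change 2.70, adjusted p = 0.00215).

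Nitrogen, fat and sugar metabolism fell alongside. In the urea cycle and amino acid list 17 of 18 genes were lower at an adjusted p under 0.05, with a list median of -2.01, and the 18 genes did not overlap between the groups. Among all genes 20.5% were called lower, and 26.9% were lower without overlap. Tat, the first step of tyrosine breakdown, was at 2713, 2788 and 3517 CPM in normal rats and at 203.7, 458.4 and 234.4 CPM in DEN rats (log2 fold change -3.33, standard error 0.41, adjusted p = 0.00056). Cps1, the entry enzyme of the urea cycle, was the member that missed, at 7019, 11580 and 7093 CPM against 2167, 5453 and 1721 CPM (log2 fold change -1.46, standard error 0.54, adjusted p = 0.0548). Leaving out N3 left 11 of the 18 with an adjusted p under 0.05. In fatty acid oxidation and ketone synthesis 18 of 19 genes were lower, with a median of -1.61. Ehhadh, a peroxisomal enzyme that Ppara controls, had a log2 fold change of -3.10 (adjusted p = 0.000231), and Ppara itself one of -1.44 (adjusted p = 0.00369).

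The 12 liver-type glucose genes were all lower at an adjusted p under 0.05, with a list median of -1.71. Hk1, the hexokinase of most other tissues, went from 3.421, 3.809 and 4.338 CPM to 42.13, 22.57 and 26.55 CPM (log2 fold change 2.98, standard error 0.29, adjusted p = 0.000206). In FPKM the mean of pyruvate kinase of the liver type, Pklr, went from 12.45 to 7.293 and that of Pkm, the form of proliferating cells, from 1.328 to 22.12, so their order changed. Pklr was lower (log2 fold change -1.60, adjusted p = 0.00189) and Pkm higher (log2 fold change 3.14, adjusted p = 0.000646). Of 19 further glycolysis and glucose uptake genes, which include isozymes of brain, muscle and leukocytes, 10 were higher and 1 lower at an adjusted p under 0.05, with a median of 0.87. Eno2, Aldoc, Pfkm and Slc2a3, known mainly from other tissues, were among the 10, and each lost its call when at least 1 of the rats was left out. The gene that fell was Ldha, at 2078, 2151 and 2033 CPM against 519.8, 664.2 and 475.9 CPM (log2 fold change -1.92, adjusted p = 0.0012). The summed level of the 19 genes, a large part of it Ldha, was lower, at 3104 to 3204 CPM in normal and 2078 to 2194 CPM in DEN rats. Gapdh, Tpi1, Pgk1 and Pgam1, of the middle steps that glucose synthesis also uses, had log2 fold changes between -0.36 and 0.26 and adjusted p above 0.05.

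Bile and anion transporters moved in both directions. Of 14 tested, 8 were lower and 3 higher at an adjusted p under 0.05. The uptake carriers on the blood side were among the lower, with Slc10a1, which takes up bile salts, at 528.8, 942.3 and 606.2 CPM in normal rats and 32.73, 118.3 and 42.2 CPM in DEN rats (log2 fold change -3.43, standard error 0.53, adjusted p = 0.00137). Abcb11, the pump that secretes bile salts into bile, had a log2 fold change of -2.30 (adjusted p = 0.00306). The 3 genes that rose, Abcc3, Abcc4 and Abcc1, export conjugates back towards the blood. Abcc3 was at 2.705, 3.189 and 4.097 CPM in normal rats and at 110.4, 111.3 and 85.54 CPM in DEN rats (log2 fold change 4.94, standard error 0.23, adjusted p = 1.72e-05). Abcc2, the conjugate pump on the bile side, was at 555.5 to 789.9 CPM in normal and 562.6 to 747 CPM in DEN rats, which overlap.

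**Figure D2:**
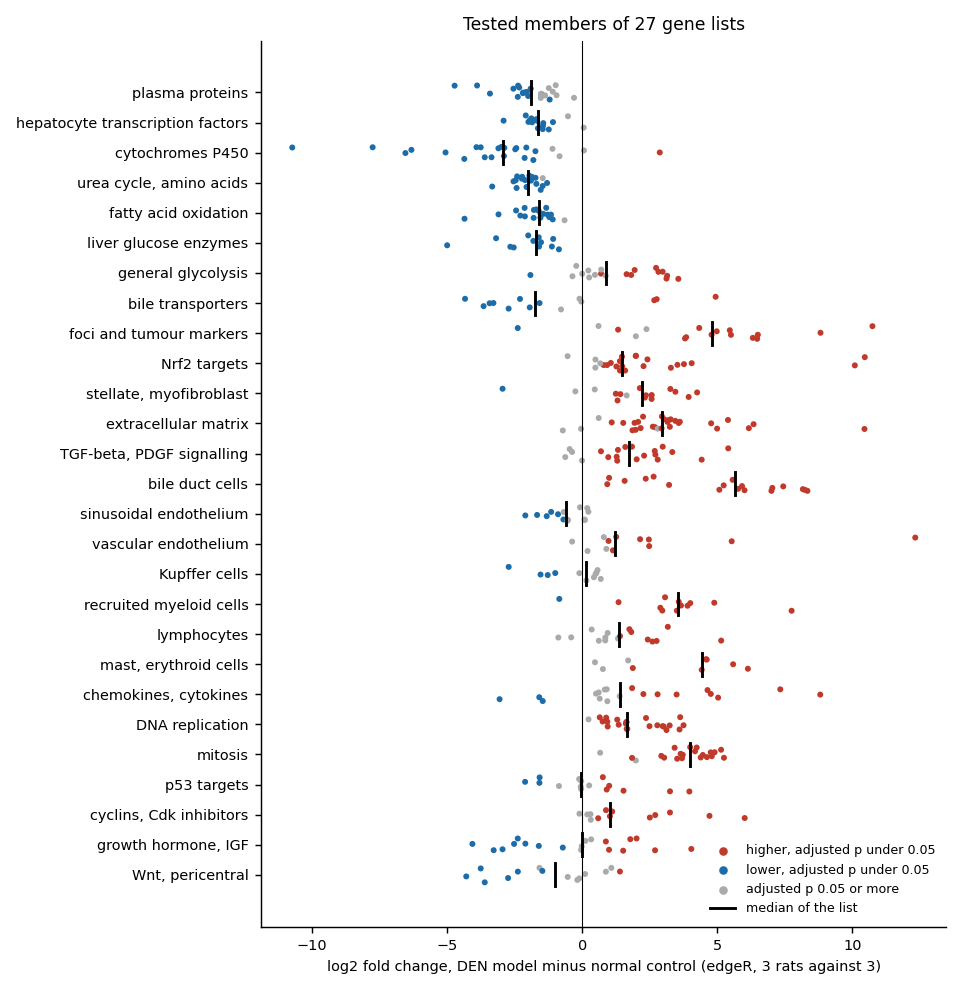
Each point is the log2 fold change of a tested member of 27 gene lists, DEN model minus normal control, coloured by whether edgeR's adjusted p was under 0.05, and the black bar is the median of the list. Medians of the hepatocyte lists at the top lie between -2.94 and -1.61, and those of mitosis, foci and tumour markers and bile duct cells at 4.0, 4.79 and 5.67. With at least 10 counts in every rat, the medians of mitosis, foci and bile duct genes were 3.33, 4.44 and 2.89.

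Genes used in pathology to mark altered foci and liver tumours of rodents rose. Of 17 tested, 13 were higher and 1 lower at an adjusted p under 0.05, 11 higher past the thresholds, the list median being 4.79. Requiring 10 counts in every rat left 11 markers, 9 of them higher and 1 lower, with a median of 4.44. Gstp1, the placental glutathione transferase by which such foci are stained, was at 15.03, 12.76 and 17.91 CPM in normal rats and at 1086, 1592 and 1466 CPM in DEN rats (log2 fold change 6.50, standard error 0.34, adjusted p = 2.03e-05). The deposited table places Gstp1 on chromosome 1 from 219291679 to 219294147, in a genome build that is not given in the sources used here. Akr1b10, a reductase of aldehydes, was at 2.943, 0.5315 and 1.205 CPM against 854.9, 641.5 and 650.1 CPM (log2 fold change 8.82, standard error 0.60, adjusted p = 5.62e-05). Gpc3, a surface proteoglycan of fetal liver and hepatocellular carcinoma, was at 0.9546, 1.063 and 1.205 CPM against 115.3, 37.38 and 105.5 CPM (log2 fold change 6.32, standard error 0.50, adjusted p = 0.000107). Every DEN rat carried these 3 markers. The fetal genes Afp and Igf2 did not follow: Afp was at 14.32, 14 and 18.23 CPM in normal rats and at 9.408, 14.87 and 217.9 CPM in DEN rats (adjusted p = 0.0907). Only M24 was above the normal range for Afp. Igf2 was at 1.352, 1.063 and 2.33 CPM against 0.9363, 3.508 and 64.39 CPM, and its adjusted p of 0.0477 was lost without M24 or without any normal rat. The gene that fell, Igf2bp3, an mRNA-binding protein usually described as fetal, was at 18.38, 34.02 and 46.03 CPM in normal and 2.229, 8.901 and 7.736 CPM in DEN rats (log2 fold change -2.39, adjusted p = 0.00579).

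Nrf2 is the transcription factor that switches on enzymes against oxidants and electrophiles through the antioxidant response element, a short motif near its targets. Of 23 targets tested, 19 were higher at an adjusted p under 0.05 and 0 lower, with a list median of 1.48, beside 25.3% higher among all genes. The promoters of Gpx2, Gclm and Me1 are printed because they rose and their RefSeq promoters hold the motif TGACNNNGC, searched on both strands from 250 bases before to 50 after the start. Capitals mark the motif, and the bases shown end just before the start, on the strand of the gene, in build GRCr8.
Gpx2, chr6:101230034-101230153, minus strand: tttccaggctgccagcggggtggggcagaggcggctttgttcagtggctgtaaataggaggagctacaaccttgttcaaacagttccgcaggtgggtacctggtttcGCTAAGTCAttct
Gclm, chr2:213031935-213032134, plus strand: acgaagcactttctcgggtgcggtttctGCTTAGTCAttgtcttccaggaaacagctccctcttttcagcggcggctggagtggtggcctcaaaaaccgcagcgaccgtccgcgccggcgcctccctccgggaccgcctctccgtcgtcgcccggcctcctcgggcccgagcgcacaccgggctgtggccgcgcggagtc
Me1, chr8:96540245-96540444, minus strand: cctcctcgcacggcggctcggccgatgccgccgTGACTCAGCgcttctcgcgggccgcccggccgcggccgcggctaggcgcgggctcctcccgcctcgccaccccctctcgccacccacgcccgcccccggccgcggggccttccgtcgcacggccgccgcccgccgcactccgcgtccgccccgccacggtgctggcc
Of 19 target promoters matched by symbol, 6 held the motif (31.6%), against 12.1% of all 33469 RefSeq promoters. A match is only a match of letters.

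Gclm, a subunit of the enzyme that limits glutathione synthesis, was at 93.15, 113.6 and 114.2 CPM in normal rats and at 596.8, 554 and 561.6 CPM in DEN rats (log2 fold change 2.42, standard error 0.22, adjusted p = 0.000166). Nqo1, a quinone reductase, was at 25.38, 20.2 and 46.67 CPM against 320.3, 499.4 and 437 CPM (log2 fold change 3.77, standard error 0.37, adjusted p = 0.00023). Me1, which makes NADPH from malate, was at 38.02, 57.49 and 25.38 CPM against 113.1, 72.41 and 105.2 CPM (log2 fold change 1.27, standard error 0.31, adjusted p = 0.01). The groups were apart in these 3 genes, and M17 was the highest DEN rat in Nqo1 and the lowest in Gclm and Me1. Gpx2, a glutathione peroxidase of gut lining, was at 0.1591, 0 and 0.1607 CPM in normal rats and 152.2, 53.46 and 178.4 CPM in DEN rats. Hmox1, the inducible haem oxygenase, was at 62.84, 41.99 and 82.82 CPM against 147.6, 82.83 and 68.26 CPM (adjusted p = 0.136), with groups that overlapped. Nfe2l2, which encodes Nrf2, had a log2 fold change of 0.49 (adjusted p = 0.102), and Keap1, its inhibitor, one of -0.54 (adjusted p = 0.082) that was 0.30 with library totals. Alpha and mu class glutathione transferases have near copies, and reads may be shared between them.

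Markers of bile duct cells rose, with the highest median of the 27 lists plotted here under the main filter on low counts. All 18 tested were higher at an adjusted p under 0.05 and without overlap between the groups, 14 past the thresholds, and the median log2 fold change was 5.67 (5.40 with members at 0 in all normal rats set to their lower bound). Their summed level was 349.3 to 452.6 CPM in normal and 1543 to 2404 CPM in DEN rats. Among all genes 25.3% were called higher, and 31.8% were higher without overlap. With at least 10 counts in every rat, 8 members were left, all higher, and their median was 2.89. The list then no longer ranked highest, since foci and tumour markers had 4.44 and mitosis 3.33. Krt19, a keratin of ducts and progenitor cells, was at 2.386, 1.417 and 0.723 CPM in normal rats and at 385.1, 53.87 and 352.8 CPM in DEN rats (log2 fold change 7.44, standard error 0.85, adjusted p = 0.000406). Sox9, a transcription factor of ducts, was at 0.6364, 0.1772 and 0.5623 CPM against 25.5, 18.17 and 23.69 CPM (log2 fold change 5.57, standard error 0.38, adjusted p = 5.42e-05). Cftr, the chloride channel of ducts, was at 0.3182, 0.2657 and 0.3213 CPM against 44.14, 39.42 and 35.87 CPM (log2 fold change 7.0, standard error 0.26, adjusted p = 9.07e-06). Krt19 was several times lower in M17 than in the other DEN rats, while Sox9 and Cftr were alike in all 3. Keratins that hepatocytes also express changed less, with Krt8 at a log2 fold change of 2.35 (adjusted p = 0.000289) and Krt18 at 1.0 (adjusted p = 0.0118), the latter lost without N12. Spp1, osteopontin, which ducts and macrophages both make, was at 0.7955, 1.24 and 1.285 CPM against 26.26, 43.82 and 131.1 CPM (log2 fold change 5.92, adjusted p = 0.000406).

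Scar-forming cells and their matrix were higher. Among 16 stellate and myofibroblast genes 12 were higher and 1 lower at an adjusted p under 0.05, with a list median of 2.23 and a summed level of 300.2 to 436.8 CPM in normal and 861.4 to 1583 CPM in DEN rats. Pdgfrb, the receptor by which stellate cells respond to PDGF, was at 22.99, 13.91 and 19.84 CPM in normal rats and 106.7, 79.74 and 105.4 CPM in DEN rats (log2 fold change 2.36, standard error 0.23, adjusted p = 0.00022). Vim, the intermediate filament of mesenchymal cells, was at 35.56, 41.63 and 44.66 CPM against 415, 253.2 and 502.3 CPM (log2 fold change 3.26, standard error 0.30, adjusted p = 0.000173). The gene that fell was Gfap, a marker of quiescent stellate cells in rat, at 1.83, 3.012 and 5.623 CPM against 0.2229, 0.3141 and 0.7912 CPM (log2 fold change -2.95, adjusted p = 0.00577). Lrat, the enzyme by which stellate cells store vitamin A, overlapped between the groups (log2 fold change 0.46, adjusted p = 0.184), as did Hgf, their growth factor for hepatocytes (log2 fold change -0.25, adjusted p = 0.435).

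Of 30 matrix genes, 26 were higher at an adjusted p under 0.05 and 0 lower, 19 past the thresholds, the list median being 2.95. A filter of 10 counts in every rat left 22 genes, 20 of them higher and 0 lower, with a median of 2.54. Col1a1, a chain of fibrillar collagen, was at 14.8, 5.935 and 20.24 CPM in normal rats and at 395.3, 219.7 and 1114 CPM in DEN rats (log2 fold change 5.40, standard error 0.73, adjusted p = 0.000796). Lama5, a laminin chain of the basement membranes under epithelium and vessels, was at 1.432, 0.7972 and 2.249 CPM against 127.8, 86.44 and 112 CPM (log2 fold change 6.17, standard error 0.35, adjusted p = 2.41e-05). Loxl1, which cross-links elastin, was at 1.352, 0.6201 and 1.607 CPM against 46.19, 30.1 and 39.38 CPM (log2 fold change 4.99, standard error 0.34, adjusted p = 5.65e-05). M24 held more Col1a1 than the other DEN rats together, while laminin and the cross-linking enzyme were close in all 3 DEN rats. Postn, a matrix protein of scars, was at 0 in the normal rats and at 5.484, 2.199 and 23.47 CPM in DEN rats, at least 41.8-fold higher against the floor of 3 counts per library. Fn1, fibronectin, which hepatocytes secrete into plasma, had a log2 fold change of -0.72 (adjusted p = 0.124), and 0.13 with library totals. Of the matrix-degrading enzymes, Mmp2, Mmp9 and Mmp12 were higher at an adjusted p under 0.05, and Mmp14 overlapped between the groups (log2 fold change -0.04, adjusted p = 0.883). Mmp12, the macrophage elastase, went from 0.2386, 0.9744 and 1.607 CPM to 25.32, 31.73 and 20.48 CPM (log2 fold change 4.77, adjusted p = 0.00025), and the inhibitor Timp1 from 2.546, 3.455 and 3.936 CPM to 24.79, 16.07 and 35.38 CPM (log2 fold change 2.94, adjusted p = 0.0004).

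TGF-beta and PDGF are the main ligands that drive stellate cells. Of 20 genes of their signalling, 16 were higher at an adjusted p under 0.05 and 0 lower, with a median of 1.72. Among the ligands Tgfb2 had a log2 fold change of 2.79 (adjusted p = 0.0011), Tgfb1 of 1.28 (adjusted p = 0.00313) and Pdgfd of 4.42 (adjusted p = 0.000274). The receptor Tgfbr2 was at 149.1, 92.75 and 126.6 CPM in normal rats and 93.45, 102.3 and 88.31 CPM in DEN rats, with overlap. Ltbp2, which binds to microfibrils and is a relative of the latent TGF-beta binding proteins, was at 2.148, 0.6201 and 1.607 CPM against 61.93, 44.87 and 81.49 CPM (log2 fold change 5.41, standard error 0.41, adjusted p = 9.47e-05). Ctgf, a target of the pathway, was at 19.97, 15.41 and 21.93 CPM against 176.2, 72.04 and 204.4 CPM (log2 fold change 2.98, adjusted p = 0.000628). Smad7, a feedback inhibitor, overlapped between the groups.

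Vessel markers were counted by kind. Of 14 markers of sinusoidal endothelium, 6 were lower at an adjusted p under 0.05 and 0 higher, where 20.5% of all genes were called lower. The list median was -0.61. With library totals 5 were higher and 2 lower and the median was 0.18, so the direction of this list depends on the scaling. Fcgr2b, a scavenging receptor of these cells, was at 139.1, 176.5 and 165.7 CPM in normal rats and 53.55, 59.53 and 38.28 CPM in DEN rats (log2 fold change -1.67, standard error 0.22, adjusted p = 0.000698, and -0.82 with library totals). Clec4g, another of their surface lectins, had a log2 fold change of -2.10 (adjusted p = 0.00449). Stab1, Mrc1 and F8 overlapped between the groups. Of 12 markers of larger or new vessels, 8 were higher and 0 lower, with a median of 1.20. Cd34, absent from normal sinusoids, was at 0.4773, 0.3543 and 0.1607 CPM against 22.38, 14.76 and 9.802 CPM (log2 fold change 5.53, standard error 0.48, adjusted p = 0.000146). Vwf, which vessel endothelium stores for clotting, was at 18.85, 7.884 and 15.58 CPM against 97.73, 76.49 and 62.28 CPM (log2 fold change 2.48, standard error 0.32, adjusted p = 0.000681). M24 had the lowest DEN values for both.

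Macrophage genes were counted apart for resident and recruited cells. Of 11 Kupffer cell genes, 4 were lower at an adjusted p under 0.05 and 0 higher, beside 45.8% called among all genes in either direction. This became 1 lower and 6 higher with library totals, and the median went from 0.16 to 1.0. The summed level of the 11 genes was 836.7 to 1576 CPM in normal and 848.5 to 1078 CPM in DEN rats. The 4 were Clec4f, Vsig4, Marco and Cd5l, the calls of Marco and Cd5l were lost in several settings, and that of Vsig4 with library totals. Clec4f, a lectin of Kupffer cells, was at 256, 197.7 and 385.2 CPM against 133.8, 128.1 and 84.57 CPM (log2 fold change -1.28, standard error 0.30, adjusted p = 0.00898). With library totals its log2 fold change was -0.44 and its adjusted p rose above 0.05. Pan-macrophage genes such as Csf1r and Cd68 had log2 fold changes of 0.53 and 0.50 and did not pass. Of 12 genes of recruited myeloid cells, 11 were higher and 1 lower, 10 past the thresholds, with a median of 3.54 (3.29 with Trem2, at 0 in the normal rats, at its bound). Their summed level was 123.5 to 181.6 CPM in normal and 484.2 to 1088 CPM in DEN rats. Requiring 10 counts in every rat left 6 of the 12, 5 of them higher and 0 lower, with a median of 3.03. Gpnmb, a gene of lipid-laden macrophages, was at 22.43, 33.04 and 37.59 CPM in normal rats and 251.8, 143.2 and 296 CPM in DEN rats (log2 fold change 2.89, standard error 0.33, adjusted p = 0.000384). Itgax, an integrin of dendritic cells and recruited macrophages, was at 2.307, 0.3543 and 1.767 CPM against 21.18, 15.92 and 19.65 CPM (log2 fold change 3.66, standard error 0.48, adjusted p = 0.000692). Cd14, the endotoxin co-receptor, was lower with a log2 fold change of -0.85 (adjusted p = 0.0338), overlapped between the groups, lost its call in several settings and turned to 0.06 with library totals.

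Lymphocyte genes were low in all rats. Of 16 tested, 8 were higher at an adjusted p under 0.05 and 0 lower, and 0 passed the thresholds. Among all genes 45.8% were called in either direction, 25.3% as higher. The sum of the lymphocyte genes was 70.08 to 126.5 CPM in normal and 194.9 to 301.6 CPM in DEN rats. Cd3e, of the T cell receptor, was at 0.2386, 0.7087 and 1.526 CPM in normal rats and at 4.369, 2.251 and 15.78 CPM in DEN rats (log2 fold change 3.17, adjusted p = 0.0151, lost without N1 or N3), M24 being the highest. Nkg7, Gzmb and Prf1 of killer cells, Cd79b of B cells and Foxp3 of regulatory T cells did not pass. Pdcd1 was at 0 in all 6 rats. Of 6 tested mast cell genes, 5 were higher at an adjusted p under 0.05, and Kit, the receptor of mast cells, did not pass (log2 fold change 0.47, adjusted p = 0.0627). Mast and red cell genes together numbered 9, with a median of 4.42. Requiring 10 counts in every rat left 4 of them, 2 higher, with a median of 1.34. Mcpt1, a mast cell protease, was at 0.7159, 0 and 0.5623 CPM against 28.36, 26.65 and 38.5 CPM (log2 fold change 6.13, standard error 0.55, adjusted p = 0.000158) and Cpa3, a carboxypeptidase of the same granules, at 0, 0.5315 and 2.169 CPM against 18.01, 22.41 and 26.42 CPM (log2 fold change 4.61, adjusted p = 0.00171). Mcpt1 has close relatives in the genome that may share its reads. Of the 3 red cell genes, a sign of blood in the tissue, Slc4a1 was higher (log2 fold change 1.87, adjusted p = 0.0139, lost without M13), and Hbb and Alas2 overlapped between the groups.

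Of 19 chemokines and cytokines tested, 9 were higher and 3 lower at an adjusted p under 0.05. A filter of 10 counts in every rat left 11 genes, 4 of them higher and 3 lower. Cxcl16, which draws T cells, was at 9.625, 11.07 and 8.033 CPM in normal rats and 104.5, 70.79 and 148.4 CPM in DEN rats (log2 fold change 3.49, standard error 0.30, adjusted p = 0.00014). Cx3cl1, the ligand of the monocyte receptor Cx3cr1, was at 0.4773, 0.1772 and 1.928 CPM against 34.11, 23.56 and 28.7 CPM (log2 fold change 5.03, standard error 0.57, adjusted p = 0.000396), and Cx3cr1 rose with a log2 fold change of 3.90 (adjusted p = 0.000273). Cxcl12 went the other way, at 445.2, 503.5 and 598.1 CPM against 63.45, 66.91 and 55.47 CPM (log2 fold change -3.06, standard error 0.23, adjusted p = 9.51e-05), while its receptor Cxcr4 rose with a log2 fold change of 2.79 (adjusted p = 0.00163). Both receptors rose, while the ligands moved in opposite directions. Il6, Tnf, Il10 and Ccl3 were too low to be tested.

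**Figure D3:**
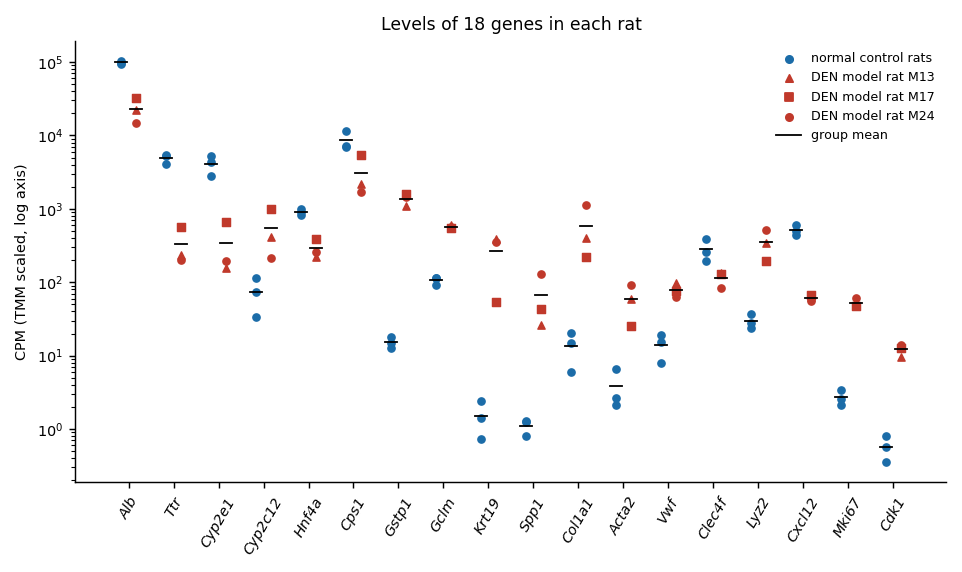
Levels of 18 genes in each rat, in CPM on a log axis, with normal control rats as blue circles, DEN model rats in red by symbol (M13 triangle, M17 square, M24 circle) and a black bar at each group mean. Gstp1 and Gclm lie close together in the 3 DEN rats, while Krt19 spreads from 53.87 to 385.1 CPM and Col1a1 from 219.7 to 1114 CPM.

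Genes of cell division rose in every DEN rat. Of 21 genes of mitosis, 19 were higher at an adjusted p under 0.05 and 0 lower, 18 past the thresholds, the list median being 4.0 and the summed level 24.26 to 28.08 CPM in normal and 257 to 404.6 CPM in DEN rats. Members rare in normal liver entered the test in part through their DEN counts. Requiring 10 counts in every rat left 8 members, 7 of them higher and 0 lower, with a median of 3.33. Many genes of mitosis are silenced in resting cells through the CHR element, with the letters TTTGAA, and are activated through CCAAT boxes near it. The promoters of Cdk1, Top2a and Cdc20 are printed as examples that hold both, on the strand of the gene in build GRCr8, ending just before the start. Capitals mark CHR elements (TTTGAA or its reverse complement TTCAAA) and CCAAT boxes (CCAAT or ATTGG), both strands having been searched.
Cdk1, chr20:19265173-19265292, plus strand: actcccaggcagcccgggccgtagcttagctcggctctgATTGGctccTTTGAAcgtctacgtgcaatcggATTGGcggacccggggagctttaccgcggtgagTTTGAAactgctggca
Top2a, chr10:84473094-84473213, minus strand: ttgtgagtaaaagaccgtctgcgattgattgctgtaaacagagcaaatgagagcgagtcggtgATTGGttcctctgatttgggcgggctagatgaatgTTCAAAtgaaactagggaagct
Cdc20, chr5:137255800-137255919, minus strand: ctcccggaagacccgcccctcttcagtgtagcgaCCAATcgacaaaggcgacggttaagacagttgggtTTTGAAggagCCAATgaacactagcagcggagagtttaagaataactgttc
Of 16 mitosis promoters matched by symbol, 10 held a CHR element (62.5%, against 18.3% of all 33469 promoters) and 13 a CCAAT box (81.2%, against 37.5%), and in 1 of them, Mki67, the motifs overlapped by 1 base. These are matches of letters.

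Mki67, the antigen stained to count cycling cells, was at 2.148, 2.569 and 3.454 CPM in normal rats and at 46.81, 47.12 and 60.79 CPM in DEN rats (log2 fold change 4.24, standard error 0.24, adjusted p = 2.56e-05). Cdk1, the kinase that starts mitosis, was at 0.7955, 0.3543 and 0.5623 CPM against 9.675, 12.77 and 14.11 CPM (log2 fold change 4.39, standard error 0.36, adjusted p = 0.00012). Top2a, which untangles chromosomes, was at 1.83, 3.455 and 2.651 CPM against 42.04, 34.97 and 66.2 CPM (log2 fold change 4.18, standard error 0.34, adjusted p = 0.000115). In Mki67 and Top2a the lowest DEN rats were M13 and M17. Aurka and Birc5 did not pass (adjusted p = 0.122 and 0.0569). Genes of DNA replication rose less, with 22 of 23 higher and 0 lower at an adjusted p under 0.05 and a median of 1.65. Mcm6, of the helicase, was at 2.148, 1.949 and 3.213 CPM in normal rats and 16.45, 18.69 and 28.7 CPM in DEN rats (log2 fold change 3.12, standard error 0.32, adjusted p = 0.000252), and Pcna, the sliding clamp, at 25.46, 36.5 and 28.68 CPM against 46.41, 48.38 and 58.24 CPM (log2 fold change 0.76, adjusted p = 0.0116).

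Brakes on the cycle moved in both directions. Cdkn1a, the p53-induced inhibitor p21, was at 77.08, 39.51 and 112.8 CPM in normal rats and 18.55, 29.01 and 29.05 CPM in DEN rats (log2 fold change -1.58, standard error 0.36, adjusted p = 0.0078). With library totals its log2 fold change was -0.75 and its adjusted p rose above 0.05. Cdkn2b, a Cdk4 inhibitor that TGF-beta induces, was at 0.4773, 2.037 and 0.9639 CPM against 18.41, 11.88 and 60.04 CPM (log2 fold change 4.71, standard error 0.74, adjusted p = 0.00152). Cdkn2a, of the neighbouring locus, was at 0.07955, 0 and 0.1607 CPM against 5.172, 2.461 and 9.714 CPM. Cdkn2a and Cdkn2b thus rose from levels near the floor, and Cdkn1a fell. Ccnd1, the cyclin that opens the cycle, had a log2 fold change of 1.11 (adjusted p = 0.00396), and Myc of 0.88 (adjusted p = 0.0162, lost without M24, N1 or N3). Of 15 p53 target genes 6 were higher and 3 lower at an adjusted p under 0.05, beside 45.8% called among all genes in either direction, with a median of -0.04. Sesn2 had a log2 fold change of -2.11 (adjusted p = 0.00133) and Fas of 1.53 (adjusted p = 0.00143).

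Wnt signalling marks hepatocytes around the central vein. Of 14 genes of this group 6 were lower and 1 higher at an adjusted p under 0.05, with a list median of -1.0. Among all genes 45.8% were called in either direction, 20.5% as lower. With library totals 5 genes of the group were lower and 4 higher, and the median was -0.22. Glul, glutamine synthetase, the classical gene of that zone, was at 240.2, 156 and 430.6 CPM in normal rats and 245.8, 281 and 203.2 CPM in DEN rats, with overlap. Oat, found in the same cells, was at 316.9, 481.2 and 474.4 CPM against 52.79, 81.31 and 56.04 CPM (log2 fold change -2.74, standard error 0.28, adjusted p = 0.000262), and Notum, a secreted Wnt inhibitor, at 32.38, 20.29 and 58.32 CPM against 1.338, 3.194 and 1.187 CPM (log2 fold change -4.29, standard error 0.51, adjusted p = 0.00047). Axin2, a general read-out of the pathway, overlapped between the groups (log2 fold change -0.54, adjusted p = 0.245), as did Ctnnb1, which encodes beta-catenin. Markers of this zone therefore did not move alike.

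Genes past the thresholds were ranked by size of change if their groups did not overlap and the higher group had 50 CPM or more. Symbols beginning with LOC, RGD, AABR, AC and a digit, ENSRNOG or Mup were left out, so the extremes of all genes may differ. The 12 highest were Aldh3a1, Slc7a11, Gpx2, Dnaaf1, Akr1b10, Fndc1, Krt19, Pla2g7, Serpinb1a, Tspan8, Gstp1 and Ggt1. Dnaaf1, which helps assemble the motors of cilia, was at 0.1591, 0.1772 and 0 CPM in normal rats and 84.09, 60.11 and 61.54 CPM in DEN rats. Serpinb1a, an inhibitor of neutrophil proteases, was at 1.511, 2.037 and 3.213 CPM against 402.5, 84.97 and 418.5 CPM (log2 fold change 7.06, standard error 0.70, adjusted p = 0.000234). Tspan8, a tetraspanin of epithelial tumours, was at 0.875, 1.063 and 0.9639 CPM against 77.09, 29.79 and 195.9 CPM (log2 fold change 6.70, standard error 0.75, adjusted p = 0.000377). In the last 2 genes M17 had the lowest DEN value and in Dnaaf1 it was level with M24. The 12 lowest were Cyp2c11, Car3, Cyp3a23/3a1, Sult1e1, Aox3, Cyp4a2, Dhrs7l1, Avpr1a, Cyp2c7, Cfb, Ust5r and Acnat1. Car3, a carbonic anhydrase of hepatocytes and muscle, was at 536.7, 567.2 and 1405 CPM in normal rats and 0.1338, 9.215 and 0.5714 CPM in DEN rats (log2 fold change -8.00, standard error 1.39, adjusted p = 0.00234). Sult1e1, which inactivates oestrogen, was at 1199, 1910 and 1661 CPM against 0.2229, 15.76 and 6.461 CPM (log2 fold change -7.74, standard error 1.20, adjusted p = 0.00145). Avpr1a, the vasopressin receptor of hepatocytes, was at 139.8, 168.6 and 120.5 CPM against 0.8025, 4.031 and 0.1758 CPM (log2 fold change -6.46, standard error 0.82, adjusted p = 0.000623). All 3 were highest in M17 among the DEN rats. Cfb stands under 2 overlapping identifiers that can divide the same reads. The named 1, ENSRNOG00000000419, was at 9.148, 469.8 and 348.3 CPM in N1, N3 and N12 and the other, ENSRNOG00000051158, at 2568, 1143 and 1789 CPM, so the split between them differed among normal rats and the change of Cfb is uncertain.

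The DEN rats differed in how far they had moved. Over the 1753 genes past the thresholds, M17 had the smallest difference from the normal mean in 73.8%, M24 the largest in 51.3% and M13 the largest in 39.9%. The median difference, in log2(CPM + 1), over the genes that were lower was -2.74 in M13, -1.98 in M17 and -2.93 in M24. In 22 of 27 lists M17 lay nearest to normal liver. For plasma proteins the medians were -2.16, -1.22 and -2.71 in M13, M17 and M24. Because these genes were called with the same rats, the order describes the 3 rats and is no test.

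**Figure D4:**
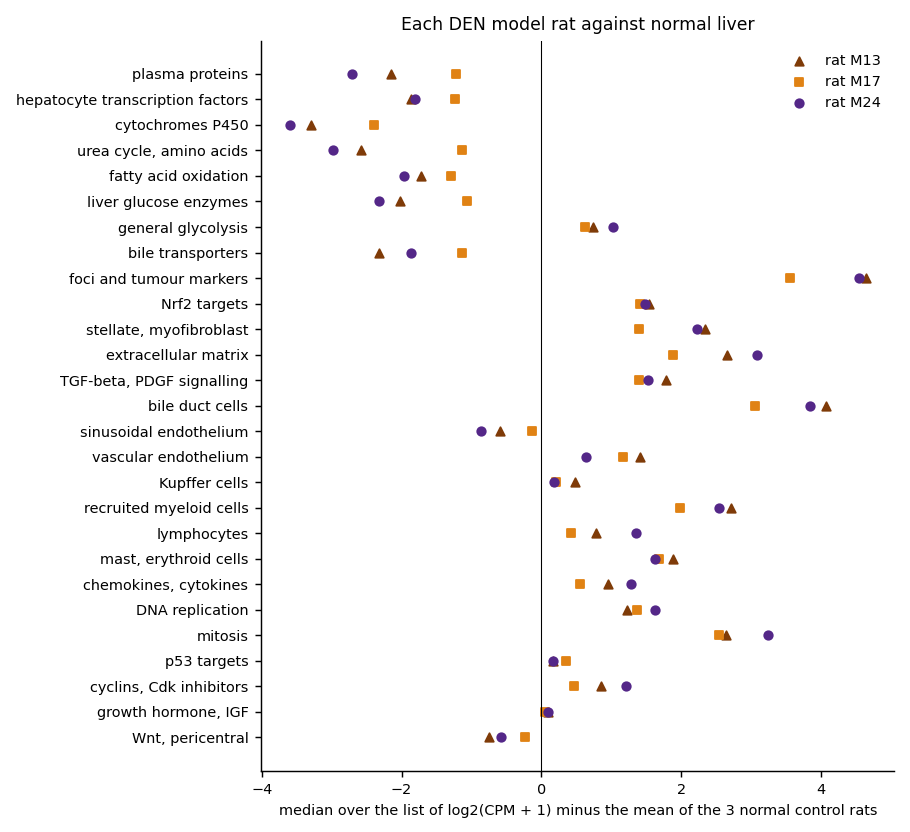
For 27 gene lists, the median over tested members of log2(CPM + 1) in each DEN model rat minus the mean of the 3 normal control rats, with a symbol for each rat and a line at 0 for normal liver. M17 (square) lies nearest to 0 in 22 lists, while for mitosis and DNA replication it lies beside M13.

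Among genes of at least 20 CPM on average in DEN liver, the 10 with the largest ratio between the highest and lowest DEN rat were Igf2, Tnc, Cldn2, Aldh1a7, Alox15, Cdh17, Afp, MGC105649, Ugt2a3 and Fam111a, a description with no test. Igf2, Tnc, Cdh17, Afp and MGC105649 were highest in M24. Tnc, a matrix protein of wounds and tumours, was at 4.681, 1.99 and 68.61 CPM in M13, M17 and M24 against 0.1772 to 0.4773 CPM in normal rats. Cdh17, a cadherin of intestine that rat liver also expressed here, was at 209.4, 199.8 and 222.6 CPM in normal rats, at 14.04 and 11.57 CPM in M13 and M17 and at 288.4 CPM in M24. M13 had the highest values of Cldn2, Aldh1a7, Alox15 and Ugt2a3, and Alox15, a lipoxygenase, ran from 160 CPM in M13 to 40.16 CPM in M17 and 5.67 CPM in M24. M17 stood out in Fam111a, at 111.1 CPM against 8.427 and 9.45 CPM in M13 and M24 and at most 0.5623 CPM in normal rats. Each DEN rat was thus highest in some of these genes.

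Genes often used as references were checked for the scaling. Of 13, 3 were higher (Tfrc, Actb and Ywhaz) and 2 lower (Sdha and Gusb, both lost with library totals) at an adjusted p under 0.05, beside 45.8% called among all genes in either direction. With library totals 8 of the 13 were higher and 0 lower, with a median of 0.78. With TMM the median was -0.10 and the sums were 4654 to 5728 CPM in normal and 4896 to 5784 CPM in DEN rats. Gusb changed by -0.62 (adjusted p = 0.0164) and by 0.23 with library totals. Actb, which activated and inflammatory cells hold in quantity, was at 536.7, 543.3 and 662.9 CPM in normal rats and at 1136, 979 and 1517 CPM in DEN rats (log2 fold change 1.06, adjusted p = 0.0149, lost without N1), and Tfrc, the transferrin receptor, had a log2 fold change of 1.90 (adjusted p = 0.00293). Gapdh, Hprt1, Tbp, Ppia and Polr2a did not pass, with log2 fold changes between -0.16 and 0.44.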

How the data were processed

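Livers of 9 rats were sequenced, and 6 were compared here. Per the submitters' processing notes, reads were handled with fastp, HISAT2 2.1.0, StringTie 1.3.3b and edgeR 3.30.3. The authors deposited raw counts per gene and FPKM values, and the genome build is not given in the sources used here. The deposited counts were tested and the deposited FPKM values were used only to compare levels between genes. Counts were filtered with filterByExpr, scaled by TMM and tested with the quasi-likelihood test of edgeR 4.0.16 in R 4.3.3, DEN model minus normal control, with no covariates and Benjamini-Hochberg adjustment. CPM values use the TMM library sizes. On simulated data, 199 of 200 genes changed by 3 on the log2 scale were past the thresholds among 14111 genes, and 0 unchanged genes. At an adjusted p under 0.05, 9 unchanged genes were called. The simulation gave all genes the same spread and changed no gene of low count, so it says little of genes near 0. Members, lists and tests were chosen with earlier results of these data known. Named genes were list members of high level or textbook importance, and the 12 highest and 12 lowest log2 fold changes under the limits stated above. Further named genes were the 10 most abundant of each group, and the 10 most variable between DEN rats at 20 CPM or more. Alternatives were DESeq2 1.42.0, library totals in place of TMM, other filters and thresholds, all 9 rats in 1 fit, and each rat left out. Nothing says more of the rats than that they are separate animals, so p-values measure the spread between them. Some list members are counted but not reported by name here.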

Additional observations from a re-analysis of the deposited data

How the results depend on the processing

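Over single genes, 5031 of 5545 recomputed results kept their direction and side of the threshold, 236 lost the call, 155 gained it and 119 values without a call moved. With library totals, 4 reversed: Lyve1 to 0.14, Cd14 to 0.06, Stat5b to 0.13 and Gusb to 0.23 on the log2 scale. The 1753 genes past the thresholds became 2783 with library totals (92.0% higher, against 71.6%), 938 with at least 10 counts in every rat (58.6% higher) and 2838 with a log2 fold change above 1 (61.1% higher). Leaving out 1 rat gave 1248 (without N1) to 2033 (without M17, 64.5% higher). The count at an adjusted p under 0.05 was 4724 (without M13) to 6790 (without N3), and 9084 with library totals were 89.5% higher where 55.3% were. With DESeq2, 24 plasma protein genes were called. With library totals, 18 glycolysis (17 higher), 7 Kupffer cell (6 higher), 13 lymphocyte (13 higher), 8 reference (8 higher) and 2 adipocyte and muscle genes were called. With at least 10 counts in every rat, which removes genes near 0 in normal liver, fewer members were tested. Calls among those still tested were 8 of 8 for bile duct, 5 of 6 for recruited myeloid and 4 of 8 for lymphocyte genes. They were 2 of 4 for mast and red cell, 7 of 11 for chemokine, 7 of 8 for mitosis and 5 of 9 for cyclin and inhibitor genes. They were 0 of 2 for pancreas, 0 of 2 for intestine, and 0 of 1 for adipocyte and muscle genes. Leaving out 1 rat gave 11 to 24 calls for plasma protein, 11 to 18 for urea cycle, 8 to 12 for liver glucose, 7 to 12 for glycolysis, 3 to 6 for sinusoidal, 5 to 10 for vessel, 2 to 6 for Kupffer cell, 4 to 8 for lymphocyte, 6 to 9 for p53 target, 5 to 9 for cyclin and inhibitor, 3 to 7 for reference, 1 to 2 for pancreas and 1 to 2 for adipocyte and muscle genes. Apart from the removal of low genes, the cause was not tested. No paired analysis was possible because the groups share no replicate numbers. Genes under the floor of 3 counts are limited by depth.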

Other observations

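Markers of other organs were low or absent except for a few. Of the pancreas list, Cpa1, a digestive carboxypeptidase, was at 0 in the normal rats and at 44.32, 15.86 and 3.604 CPM in M13, M17 and M24, at least 85.58-fold higher against the floor of 3 counts per library, while Prss1 and Pnlip were at 0 in all 6 rats. Of 6 tested genes of the intestine list, 4 were higher at an adjusted p under 0.05 (Vil1, Slc15a1, Gucy2c and Tff3), beside 25.3% among all genes. Cdh17, which held most of the list's level in normal rats, was not called (log2 fold change -1.01, adjusted p = 0.455). The summed level of the list was 203.6 to 226 CPM in normal rats and 125.2, 70.79 and 427.4 CPM in M13, M17 and M24. Vil1, a protein of microvilli, was at 0.1591, 0 and 0.5623 CPM in N1, N3 and N12 and at 23.1, 4.555 and 23.78 CPM in M13, M17 and M24. Cdx2, a transcription factor of gut epithelium, was left out of the test by the filter on low counts. It was at 18.55 CPM in M24 and at 0.7134 and 0.1047 CPM in M13 and M17. Alpi was at 0 in all 6 rats. Of the adipocyte and muscle list, Plin1, Lep, Ckm and Mb were at 0 in all 6 rats, and Acta1, a muscle actin, was at 0 in the normal rats and 1.471, 1.414 and 2.813 CPM in DEN rats, at least 7.645-fold higher.

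Among 28 tested miRNA genes, a small number, 1 was higher and 6 lower past the thresholds. Among 183 lincRNA genes 7 were higher and 16 lower, and among 13649 protein-coding genes 1230 were higher and 464 lower. The share past the thresholds in either direction was alike, at 12.6% of lincRNA and 12.4% of protein-coding genes. A difference between gene types was not tested.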
